A study of Homo sapiens with 14 samples.

Results

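The genes described here are 10 named components of the TGFβ-SMAD pathway, chosen by name for their role. They comprise the feedback inhibitors PMEPA1, SMAD7, SKIL and BAMBI, the ID genes ID1, ID2 and ID3, the signalling protein gene SMAD3, and the receptor genes TGFBR1 and TGFBR2. Each was measured by 1 probe set, and together they are 10 of 18417 genes measured. Of the 10, 9 were among the 11050 genes kept for counts and tests, those with a mean log2 level of at least 5.90 (the 40th percentile). ID3 (mean log2 level 4.99) lay below this level, so its values are given but enter no count.

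TGFβ1 binds the type II receptor TGFBR2, which then engages and phosphorylates the type I receptor TGFBR1. The activated TGFBR1 kinase phosphorylates SMAD2 and SMAD3, which enter the nucleus with SMAD4 and regulate transcription. Several targets of this complex restrain it in turn, so their transcripts are commonly used as a readout of pathway activity in epithelial cells undergoing epithelial-mesenchymal transition (EMT). The ID proteins dimerise with basic helix-loop-helix factors and keep them from DNA. They are best known as targets of the related BMP pathway, and TGFβ is known to raise or lower them depending on the cell type.

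RNA was measured on 14 arrays, 1 per condition, from a human gastric carcinoma line named MKN28 in the sample labels and MKN74 in the study, and from its derivative MKN74Snai1ER. This derivative carries a transgene that fuses the EMT factor Snai1 to an oestrogen receptor domain (Snai1-ER), which 4-hydroxytamoxifen (4-OHT) activates. The parental line was untreated (day 2), kept at 1% O2 (hypoxia, days 1 and 2) or given 10 ng/ml TGFβ1 (days 1 and 2), and Snai1ER cells were untreated (day 4) or given 20 ng/ml 4-OHT (days 2 and 4). For each of these 6 treatments by day there was a further array of ANGPTL4 knockdown cells. In the study's assays, knockdown was by siRNA in the parental line. In the Snai1ER line it was by a doxycycline-inducible shRNA transgene (MKN74Snai1ER:shANGPTL4). The sample titles give neither the method nor whether doxycycline was present. The untreated arrays had no knockdown partner, all cells were seeded sparsely to grow as colonies, and neither the labels nor the study say whether the arrays of a treatment came from separate cultures or whether Snai1ER is 1 clone.

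The TGFβ1 arrays without knockdown carried lower deposited values than the rest. Their median over all probe sets was 5.23 and 5.19, while no other array was above 6.16 and the lowest of them was at 5.997, and the gap was wider at low levels. Genes at an untreated log2 level of 5 to 6 differed from the untreated array by a median of -0.87 on day 1, and genes at 9 to 10 by -0.25. Levels and differences below are therefore log2 values after quantile normalisation, which gives all 14 arrays 1 distribution, and values as deposited are given beside the main results whose call or direction they change. The knockdown array of hypoxia day 1 was another outlying one: its genes scattered around the mean of the remaining arrays with an SD of 0.72, against 0.27 to 0.56. SNAI1 levels were 5.48 to 6.07 in the parental line and 8.74 to 9.78 in all 5 Snai1ER samples. The ANGPTL4 probe set read 4.97 to 5.37 on treated arrays without and 5.08 to 5.39 with knockdown, so it did not check the knockdown labels. Of 8 epithelial markers 7 were above the filter, VIL1 being the exception. Of the markers of other cell types, COL1A1 of 8 for fibroblasts, CD68 of 6 for leukocytes and none of 4 for endothelium were above it. The mean log2 level of the fibroblast markers was 4.88 to 5.12 over the 14 arrays. In such bulk samples, fewer cells expressing a gene and less of its RNA per cell cannot be told apart.

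PMEPA1 encodes a membrane protein that binds SMAD2 and SMAD3 and keeps them from the receptor. Its level was 5.74 in untreated parental cells, 8.33 and 8.39 on days 1 and 2 of TGFβ1, and 7.001 and 7.36 on the same days with knockdown. On hypoxia it was 6.14 and 6.33, and 6.12 and 5.65 with knockdown. The 4 TGFβ1 arrays were thus above every other parental array, and those with knockdown lay between the rest and the TGFβ1 arrays without it. In Snai1ER cells PMEPA1 was 7.03 untreated, 6.80 and 6.81 on days 2 and 4 of 4-OHT, and 6.62 on both days with knockdown. These 5 arrays stayed within a narrow band.

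SKIL encodes SnoN, a co-repressor that binds SMAD complexes on DNA. Its level was 9.69 in untreated parental cells, 11.005 and 11.09 on TGFβ1, and 10.95 and 10.36 on TGFβ1 with knockdown. On hypoxia it read 10.26 and 9.96, and 9.38 and 10.07 with knockdown. All 4 TGFβ1 arrays again exceeded the other 5 parental arrays. In Snai1ER cells SKIL was 9.43 untreated, 9.83 and 9.99 on 4-OHT, and 8.53 and 9.48 with knockdown, the day 2 array with knockdown being the lowest of the 14.

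BAMBI encodes a receptor-like protein without a kinase domain that occupies the type I receptor's place. Its level was 8.99 in untreated parental cells, 10.12 and 10.27 on TGFβ1, and 9.13 and 8.52 on TGFβ1 with knockdown. On hypoxia it was 9.33 and 9.15, and 10.78 and 9.12 with knockdown. The 10.78 came from the hypoxia day 1 array with knockdown that stood apart, and was the highest value of the 14. In Snai1ER cells BAMBI was 8.93 untreated, 9.69 and 9.24 on 4-OHT, and 8.17 and 8.06 with knockdown, so that both 4-OHT arrays with knockdown lay below every other array.

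SMAD7 encodes the inhibitory SMAD that brings ubiquitin ligases to the receptors. It varied less, over a range of 0.98 log2 units across all arrays against 2.75 for PMEPA1. Its level was 6.17 in untreated parental cells, 6.53 and 6.66 on TGFβ1, 6.22 and 6.30 on TGFβ1 with knockdown, and 5.68 and 6.14 on hypoxia. With knockdown on hypoxia it was 6.17 and 6.23. Its Snai1ER levels were 6.55 untreated, 6.55 and 6.30 on 4-OHT, and 6.52 and 6.21 with knockdown. The deposited file gave 5 arrays the same SMAD7 value to every digit, so the small differences among them arose from the normalisation.

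The promoters of PMEPA1, SKIL, BAMBI and ID2 are shown because these 4 genes had the largest differences on TGFβ1. They are the 250 bases before the outermost annotated start, from RefSeq (GRCh38.p14), 5′ to 3′ on the gene's strand. Capitals mark the core of the SMAD-binding CAGA box, CAGAC on either strand (read as GTCTG on the other), and the GC-rich SMAD element GGCGCC, which is its own reverse complement. No CAGAC match in these runs overlapped a GGCGCC match.
PMEPA1, chr20:57711473-57711722, minus strand: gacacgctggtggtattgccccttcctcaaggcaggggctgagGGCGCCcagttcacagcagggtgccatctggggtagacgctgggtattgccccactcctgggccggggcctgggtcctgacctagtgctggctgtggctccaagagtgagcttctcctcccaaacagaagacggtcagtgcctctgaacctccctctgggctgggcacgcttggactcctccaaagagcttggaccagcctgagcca
SKIL, chr3:170357465-170357714, plus strand: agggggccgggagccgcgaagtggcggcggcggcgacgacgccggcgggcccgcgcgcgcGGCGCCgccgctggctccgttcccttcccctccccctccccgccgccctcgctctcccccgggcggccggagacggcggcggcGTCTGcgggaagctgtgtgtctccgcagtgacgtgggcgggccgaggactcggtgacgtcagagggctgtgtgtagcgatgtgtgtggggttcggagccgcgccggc
BAMBI, chr10:28677271-28677520, plus strand: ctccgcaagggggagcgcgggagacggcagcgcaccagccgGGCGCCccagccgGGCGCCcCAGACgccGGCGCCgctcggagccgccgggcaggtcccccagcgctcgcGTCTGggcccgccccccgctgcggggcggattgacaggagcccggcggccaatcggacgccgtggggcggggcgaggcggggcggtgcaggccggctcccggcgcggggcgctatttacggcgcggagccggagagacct
ID2, chr2:8681806-8682055, plus strand: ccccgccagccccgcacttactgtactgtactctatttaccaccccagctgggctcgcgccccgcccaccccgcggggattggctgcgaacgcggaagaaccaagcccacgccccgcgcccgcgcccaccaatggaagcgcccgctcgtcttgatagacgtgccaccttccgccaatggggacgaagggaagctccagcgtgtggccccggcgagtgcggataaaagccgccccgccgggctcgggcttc
BAMBI held 2 CAGAC matches and 3 of GGCGCC, SKIL 1 of each, PMEPA1 1 GGCGCC and ID2 neither. Over all 35116 windows of 300 bases around starts, which reach 50 bases past the start, 45.3% held CAGAC and 19.2% held GGCGCC. In the outermost windows of the 10 genes, 5 held CAGAC (SMAD7, SKIL, BAMBI, ID3 and SMAD3) and 4 held GGCGCC (PMEPA1, SKIL, BAMBI and SMAD3). PMEPA1 has 4 annotated windows, and the other 3 each held CAGAC. The palindrome GTCTAGAC was in 0 of the 10 windows and in 0.202% of all. The Snail E-box CACCTG, searched on both strands, was in 1 of the 10, that of TGFBR1, and in 20.6% of all. The core of the hypoxia response element, ACGTG on either strand, was in 5 of the 10 (SKIL, ID1, ID2, SMAD3 and TGFBR2) and in 21.4% of all. The shares of all windows include inner starts, while the counts of 10 take 1 window per gene. Over all 27 annotated windows of the 10 genes, CAGAC was in 15, GGCGCC in 5, CACCTG in 6 and ACGTG in 10. A match is only a match of letters in these windows.

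ID2 encodes a helix-loop-helix inhibitor of differentiation. Its level was 6.62 in untreated parental cells, 8.30 and 8.35 on TGFβ1, and 6.63 and 6.62 on TGFβ1 with knockdown. The TGFβ1 arrays with knockdown thus read as the untreated array did. On hypoxia ID2 was 6.84 and 6.89, and 8.22 and 7.38 with knockdown. Here the arrays with knockdown were the higher ones, the opposite of the order on TGFβ1. In Snai1ER cells ID2 was 8.07 untreated, 7.60 and 8.54 on 4-OHT, and 8.55 and 7.93 with knockdown, with no common order by time or knockdown.

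ID1 encodes the founding member of the family. Its level was 6.08 in untreated parental cells, 6.83 and 6.86 on TGFβ1, and 5.50 and 5.66 on TGFβ1 with knockdown. On hypoxia it was 5.77 and 5.94, and 6.07 and 5.59 with knockdown. On this scale the TGFβ1 arrays without knockdown were the highest of the parental arrays, and those with knockdown were below the untreated one. In Snai1ER cells ID1 was 6.96 untreated, 7.34 and 6.54 on 4-OHT, and 6.58 and 6.01 with knockdown.

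ID3, the ID gene below the filter, read 4.68 in untreated parental cells, 5.22 and 5.51 on TGFβ1, and 4.60 and 4.61 on TGFβ1 with knockdown. The other parental arrays were at 4.73 to 5.01 and the Snai1ER arrays at 4.82 to 5.41. Its order on TGFβ1 was that of ID1 and ID2 after quantile normalisation, but as deposited ID3 differed from the untreated array by -0.39 and -0.11 on TGFβ1.

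TGFBR2, the ligand-binding receptor, read 7.84 in untreated parental cells, 8.31 and 8.37 on TGFβ1, and 8.96 and 8.77 on TGFβ1 with knockdown. On hypoxia its level was 7.87 and 7.73, and 8.46 and 8.69 with knockdown. In Snai1ER cells it was 8.16 untreated, 8.33 and 7.26 on 4-OHT, and 9.18 and 8.22 with knockdown. In each of the 6 pairs of arrays matched on treatment and day, the array with knockdown had the higher level. The 4-OHT day 4 array without knockdown was the lowest of all 14.

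TGFBR1, the signalling kinase, read 8.09 in untreated parental cells, 9.19 and 9.10 on hypoxia, and 7.84 and 8.22 on hypoxia with knockdown. On TGFβ1 its level was 8.26 and 8.18, and 7.74 and 7.79 with knockdown. The hypoxia arrays without knockdown stood above all others. In Snai1ER cells TGFBR1 was 7.57 untreated, 7.77 and 7.14 on 4-OHT, and 7.55 and 7.84 with knockdown.

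SMAD3, the receptor-activated SMAD, had the narrowest range of the 10 genes, 0.86 log2 units. It was 8.96 in untreated parental cells, 8.93 and 8.72 on TGFβ1, and 8.76 and 9.21 on TGFβ1 with knockdown. On hypoxia it was 9.05 and 9.58, and 9.20 and 9.28 with knockdown. The Snai1ER arrays lay between 8.87 and 9.32.

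**Figure D1:**
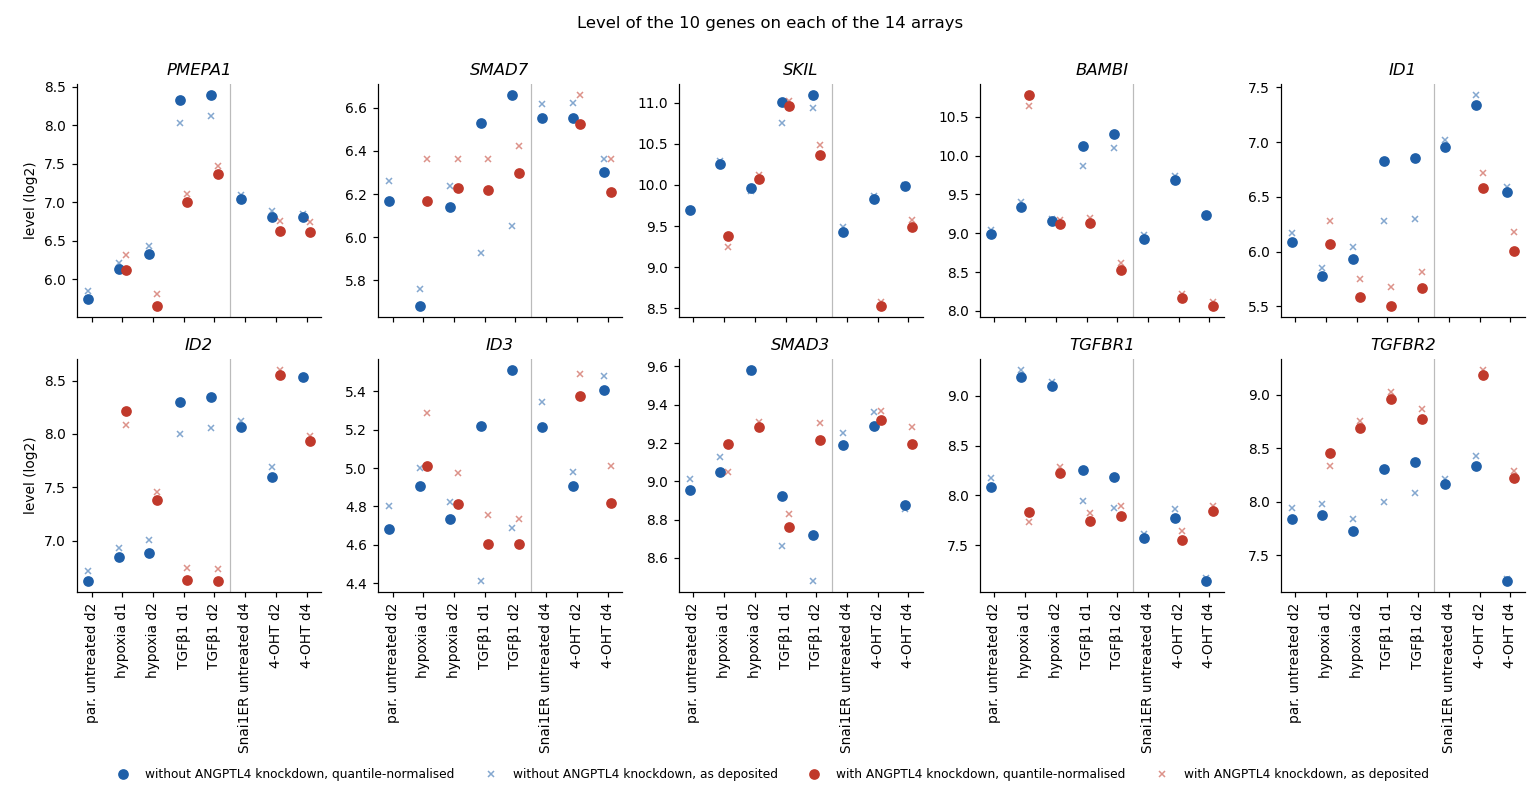
Log2 level (y axis, a separate range for each gene) of the 10 genes on each of the 14 arrays (x axis, d for day), without (blue) and with (red) ANGPTL4 knockdown, after quantile normalisation (filled points) and as deposited (crosses). PMEPA1 and SKIL have their highest points on the TGFβ1 arrays without knockdown, TGFBR1 on the hypoxia arrays without knockdown, and the deposited crosses of the TGFβ1 arrays without knockdown sit below the points.

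Treated arrays were first set against the untreated array of their line to ask which of the genes differed in each EMT model. A gene was counted when both days showed a difference of 1.5-fold or more in 1 direction. This is a rule of size without a test, because no condition was repeated. On TGFβ1, 5 of the 9 genes above the filter were higher and 0 lower by this rule, against 2.47% of all genes higher and 3.27% lower. The median log2 difference of the 9 genes, averaged over the days, was 0.76, beside 0.01 for all genes. PMEPA1 differed most, by 2.59 on day 1 and 2.65 on day 2 on the log2 scale, the latter 6.27-fold. ID2 was 3.20-fold and 3.30-fold higher, SKIL 2.49-fold and 2.64-fold, BAMBI 2.19-fold and 2.43-fold, and ID1 1.67-fold and 1.71-fold.

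The scale of the TGFβ1 arrays changed part of this count. As deposited, where 0.452% of all genes were higher and 32.3% lower, PMEPA1 (log2 difference 2.18 and 2.28), ID2 (1.28 and 1.34), SKIL (1.05 and 1.23) and BAMBI (0.83 and 1.06) still passed the rule. ID1 did not, at 0.11 and 0.13. SMAD7 differed by 0.36 and 0.49 after quantile normalisation and by -0.33 and -0.21 as deposited, so that its direction on TGFβ1 rests on the scale. TGFBR2 was 0.47 and 0.53 higher, TGFBR1 0.17 and 0.09, and SMAD3 -0.03 and -0.24, all short of the rule. As deposited, TGFBR2 was at 0.05 and 0.14 and TGFBR1 at -0.24 and -0.30, so the direction of TGFBR1 also changed with the scale.

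On the TGFβ1 arrays with knockdown, 3 of the 9 genes were higher than in untreated cells by the rule, against 0.968% of all genes. PMEPA1 was 2.39-fold and 3.07-fold higher, SKIL 2.40-fold and 1.60-fold, and TGFBR2 2.18-fold and 1.91-fold. ID2 differed from the untreated array by 0.00 on both days on the log2 scale, BAMBI by 0.14 and -0.47, and ID1 by -0.58 and -0.42. These differences share the untreated array with those without knockdown.

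On hypoxia, 1 of the 9 genes passed the rule, TGFBR1, which was 2.14-fold higher on day 1 and 2.02-fold on day 2, against 3.02% of all genes higher and 1.95% lower. The median over the 9 genes was 0.25, beside -0.03 for all genes. SKIL differed by 0.57 and 0.27 on the log2 scale, PMEPA1 by 0.39 and 0.58, and SMAD3 by 0.10 and 0.63, each past the rule on no more than 1 of the days. ID1 was at -0.31 and -0.15. With knockdown, TGFBR1 differed from the untreated array by -0.25 and 0.13, while ID2 (1.59 and 0.75) and TGFBR2 (0.62 and 0.85) passed the rule, against 1.95% of all genes. As deposited, ID2 alone of the 9 genes passed it (1.36 and 0.74), against 1.52% of all genes.

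On 4-OHT in Snai1ER cells, 0 of the 9 genes passed the rule, against 2.33% of all genes higher and 1.21% lower, with a median of -0.11 beside 0.01. BAMBI was higher on both days (log2 difference 0.76 and 0.31), as was SKIL (0.40 and 0.56), and PMEPA1 was lower by the same amount on both (-0.23 and -0.23). TGFBR2 was at 0.17 on day 2 and -0.90 on day 4. With knockdown, BAMBI was 1.69-fold and 1.82-fold lower than in untreated Snai1ER cells and alone passed the rule, against 5.43% of all genes. ID1 was then at -0.38 and -0.95, and SKIL at -0.90 and 0.06.

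**Figure D2:**
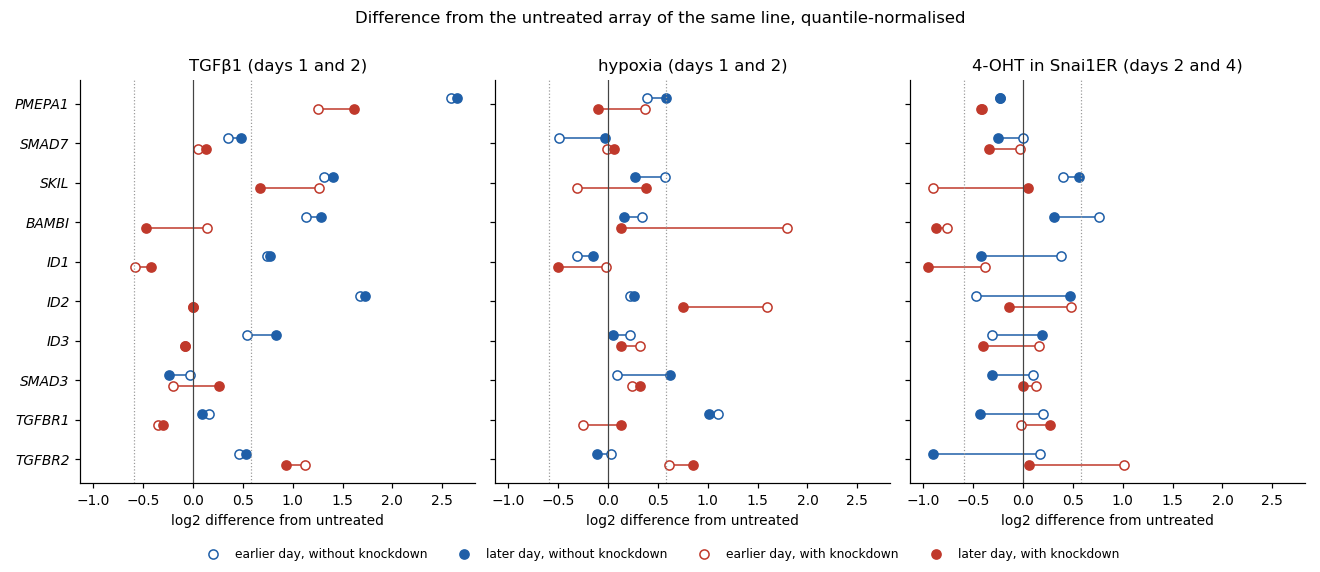
Log2 difference of each gene from the untreated array of the same line (x axis), at the earlier (open) and later (filled) day of each treatment, without (blue) and with (red) ANGPTL4 knockdown, after quantile normalisation; dotted lines mark a 1.5-fold difference. On TGFβ1 without knockdown 5 genes above the filter lie beyond the right dotted line on both days, from ID1 at 0.74 and 0.77 to PMEPA1 at 2.59 and 2.65.

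The untreated arrays of the lines differed too. PMEPA1 was 2.45-fold, ID2 2.72-fold and ID1 1.83-fold higher in untreated Snai1ER cells (day 4) than in untreated parental cells (day 2). These 3 genes of 9 passed the 1.5-fold rule on this pair of arrays, against 5.09% of all genes higher, and 0 were lower, against 8.13%. Line and day cannot be told apart here. Over all conditions, the levels on the 5 Snai1ER arrays overlapped those on the 9 parental arrays for each of these genes, ID3 included. The share of all genes that separated the lines is not given here. The levels of PMEPA1 were 6.62 to 7.03 on the Snai1ER arrays, within the parental 5.65 to 8.39. That overlap came from the TGFβ1 arrays alone, as the parental arrays without TGFβ1 were at 5.65 to 6.33. The share of all genes with such an order is not given either.

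Arrays with and without ANGPTL4 knockdown were then compared within each treatment. On TGFβ1, PMEPA1, BAMBI, ID1 and ID2 were lower with knockdown at least 1.5-fold on both days. They made up 4 of the 9 genes, against 4.48% of all genes lower and 1.36% higher, with a median of -0.45 beside -0.05. ID2 was 3.19-fold and 3.30-fold lower, ID1 2.51-fold and 2.28-fold, PMEPA1 2.51-fold and 2.04-fold, and BAMBI 1.99-fold and 3.37-fold. SKIL differed by -0.05 and -0.73 and SMAD7 by -0.31 and -0.36 on the log2 scale. The dim ID3 differed by -0.62 and -0.91.

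As deposited, ID2 (-1.25 and -1.33), PMEPA1 (-0.92 and -0.64) and BAMBI (-0.68 and -1.49) were lower by the rule, against 0.751% of all genes. ID1, at -0.60 and -0.49, missed it on day 2, and TGFBR2 was higher by it (1.02 and 0.78), against 27.6% of all genes. SMAD7 (0.43 and 0.37) and ID3 (0.34 and 0.05) then had the opposite direction, and SKIL (0.28 and -0.44) had it on day 1. The arrays compared here differ in the array-wide level described above, whose part in these differences was not tested beyond the change of scale.

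On hypoxia, TGFBR1 was 2.55-fold and 1.84-fold lower with knockdown, the 1 of 9 genes that passed, against 3.76% of all genes lower and 0.67% higher. The median was -0.03 beside -0.04. BAMBI (1.45 and -0.03) and ID2 (1.37 and 0.49) were higher with knockdown by over 1 log2 unit on day 1, on the array that stood apart. On day 2 ID2 was higher by less and BAMBI was not higher. TGFBR2 was higher on both days (0.58 and 0.96), just short of the rule on day 1.

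On 4-OHT, BAMBI was 2.87-fold and 2.26-fold lower with knockdown and TGFBR2 1.80-fold and 1.95-fold higher. These were 1 gene each of the 9, against 7.48% of all genes lower and 2.19% higher, with a median of -0.06 beside -0.08. SKIL was at -1.30 and -0.50 and ID1 at -0.76 and -0.53 on the log2 scale. ID2 was at 0.95 on day 2 and -0.60 on day 4. PMEPA1 differed little, by -0.18 and -0.19.

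The knockdown difference was tested with limma over the 6 pairs of treated arrays, each pair matched on treatment and day, with Benjamini-Hochberg adjustment over the 11050 genes. The untreated arrays did not enter. TGFBR2 was higher with knockdown in 6 of 6 pairs, by 0.40 to 0.96 log2 units. Its fitted difference was 0.73 (standard error 0.13, 95% interval 0.45 to 1.02, adjusted p = 0.0409 by limma). It was the only one of the 9 genes called, against 0.878% of all genes, 0.0905% higher and 0.787% lower. The call was not made on the deposited values (0.81, adjusted p = 0.0944 by limma, with 0.127% of all genes called), nor without the replicate block (0.73, adjusted p = 0.146 by limma). Leaving out hypoxia day 2, either TGFβ1 pair or either 4-OHT pair also ended the call, with limma's adjusted p at 0.0812 to 0.126. Without the hypoxia day 1 pair it was 0.0269.

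PMEPA1 was lower with knockdown in 6 of 6 pairs, by -0.02 to -1.33, and its fitted difference of -0.57 did not pass (95% interval -0.999 to -0.14, adjusted p = 0.167 by limma). ID1 (-0.64, 95% interval -1.11 to -0.18, adjusted p = 0.157 by limma) and SKIL (-0.56, 95% interval -0.99 to -0.13, adjusted p = 0.170 by limma) were each lower in 5 of 6 pairs. BAMBI was at -0.67 (95% interval -1.51 to 0.17) and TGFBR1 at -0.44 (95% interval -0.96 to 0.08), also lower in 5 of 6. As deposited, the intervals of PMEPA1 (-0.80 to 0.02), ID1 (-0.76 to 0.07) and SKIL (-0.94 to 0.03) crossed 0. Single pairs then turned positive: PMEPA1 on hypoxia day 1 (0.11), SKIL on TGFβ1 day 1 (0.28) and TGFBR1 on TGFβ1 day 2 (0.02). ID2 split evenly, with 3 pairs higher and 3 lower and an interval of -1.13 to 0.73. SMAD3 and SMAD7 had intervals across 0, of -0.22 to 0.40 and -0.35 to 0.28, and the estimate for SMAD7 turned from -0.03 to 0.26 as deposited. At an unadjusted p under 0.05, limma called 4 of the 9 genes and 19% of all genes, and as deposited 1 of the 9 (TGFBR2) and 16.7%. Without the hypoxia day 1 pair, limma called 3 of the 9 genes, TGFBR2 higher and BAMBI and ID1 lower, against 3.86% of all genes.

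**Figure D3:**
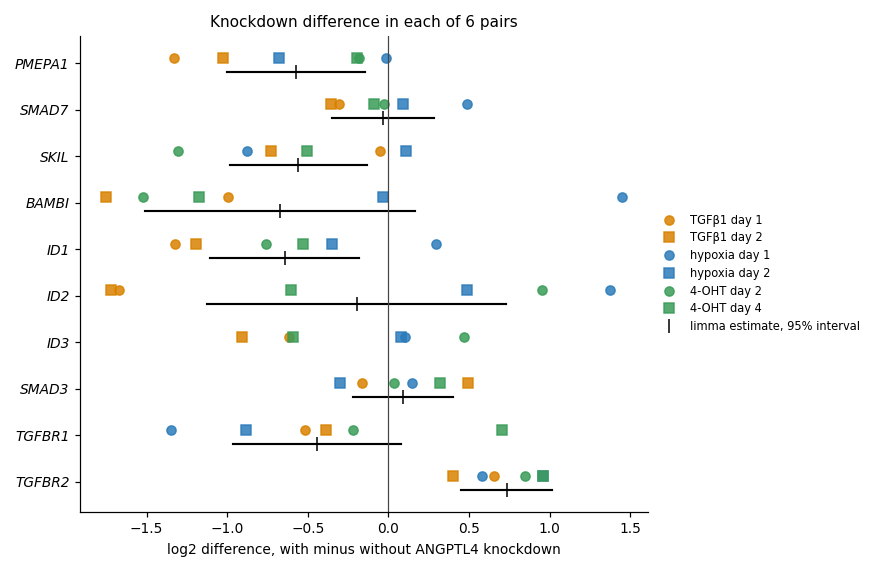
Log2 difference with minus without ANGPTL4 knockdown (x axis) in each of the 6 pairs, with limma's estimate (tick) and 95% interval (bar) for the 9 genes tested, after quantile normalisation. TGFBR2 lies right of 0 in all 6 pairs and PMEPA1 left of it, while ID2 is near -1.7 on TGFβ1 and at 0.49 and 1.37 on hypoxia.

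Whether the knockdown difference on TGFβ1 differed from that on hypoxia and 4-OHT was tested with limma on the 6 within-pair differences. The difference between them was -2.25 for ID2 (standard error 0.46, 95% interval -3.32 to -1.18, adjusted p = 0.762 by limma). It was -1.05 for BAMBI, -0.92 for ID1 and -0.91 for PMEPA1, with limma's adjusted p between 0.846 and 0.887. None of the 9 genes and 0% of all genes passed. At an unadjusted p under 0.05, limma called these 4 of the 9 genes and 5.24% of all genes. SKIL was at 0.25 (95% interval -0.67 to 1.18) and TGFBR2 at -0.31 (95% interval -0.92 to 0.30). As deposited, limma again called none of the 9 at an adjusted p under 0.05, against 0.0271% of all genes, and at an unadjusted p it called only ID2 of the 9 and 32.4% of all genes. The deposited differences were -1.78 for ID2 (adjusted p = 0.0696 by limma), -0.73 for BAMBI, -0.59 for PMEPA1 and -0.30 for ID1. That of TGFBR2 turned to 0.14 and that of SMAD7 from -0.45 to 0.21.

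TGFβ1 and hypoxia were compared over the 8 treated parental arrays, in 4 pairs matched on day and knockdown, which leaves out the untreated array that both share above. PMEPA1 was higher on TGFβ1 in 4 of 4 pairs, by 2.19 and 2.06 without knockdown and by 0.88 and 1.72 with it. Its fitted difference of 1.71 was 3.28-fold (95% interval 1.15 to 2.28 on the log2 scale, adjusted p = 0.0329 by limma), and 1.49 as deposited (adjusted p = 0.0153 by limma, with 2.14% of all genes called). PMEPA1 was the only one of the 9 genes called, against 2.53% of all genes, 1.53% higher and 1% lower on TGFβ1. The call was lost when any pair but the day 1 pair with knockdown was left out, with limma's adjusted p at 0.157 to 0.228. Without that pair, which holds the hypoxia array that stood apart, limma called 3 of the 9 genes, PMEPA1 and SKIL higher and TGFBR1 lower, against 18.4% of all genes.

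SKIL was higher on TGFβ1 in 4 of 4 pairs (0.94, 95% interval 0.40 to 1.47, adjusted p = 0.0830 by limma). SMAD7 (0.37, 95% interval -0.06 to 0.80) and TGFBR2 (0.42, 95% interval 0.06 to 0.77) were also higher in 4 of 4. As deposited, TGFBR2 was at 0.27 and SMAD7 at 0.01, with SMAD7 higher in 2 of 4 pairs, lower in 1 and equal to every digit in 1. TGFBR1 (-0.59, 95% interval -1.04 to -0.15, adjusted p = 0.145 by limma) and SMAD3 (-0.37, 95% interval -0.79 to 0.05) were higher in 0 of 4. ID2 was 1.46 higher on TGFβ1 on both days without knockdown, and differed by -1.59 and -0.75 with it. BAMBI likewise was at 0.79 and 1.12 without knockdown, and at -1.65 and -0.60 with it. The mean differences of ID2 (0.14) and BAMBI (-0.09) therefore average pairs of opposite direction. At an unadjusted p under 0.05, limma called 4 of the 9 genes and 21.1% of all genes, and as deposited 3 of the 9 (PMEPA1, SKIL and TGFBR1) and 20.5%.

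**Figure D4:**
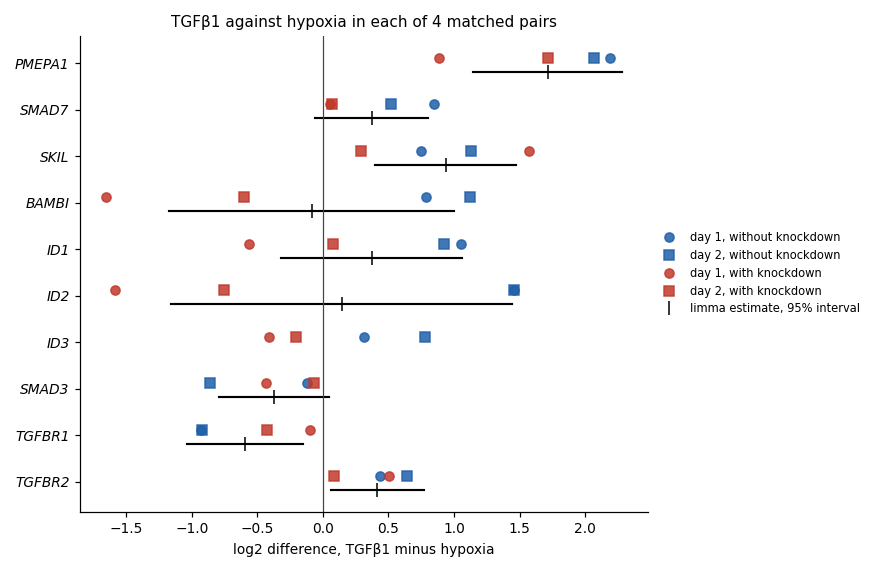
Log2 difference of TGFβ1 minus hypoxia (x axis) in 4 pairs of parental arrays matched on day and knockdown, with limma's estimate (tick) and 95% interval (bar) for the 9 genes tested, after quantile normalisation. PMEPA1 and SKIL lie right of 0 in all 4 pairs, and ID2 and BAMBI lie right of it without knockdown (blue) and left of it with knockdown (red).

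The later and earlier time points were compared over 6 pairs matched on treatment and knockdown. None of the 9 genes and 0% of all genes were called by limma, and at an unadjusted p under 0.05 it called 0 of the 9 and 1.46% of all genes. BAMBI had the largest difference among them, -0.48 (95% interval -0.96 to 0.01), and was higher at the later time in 1 of 6 pairs. PMEPA1 was at 0.02 (95% interval -0.26 to 0.31).

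Around these genes, 83 others of the pathway were listed by role, of which 79 were measured and 56 lay above the filter. On TGFβ1, 5 of the 56 were higher and 3 lower by the 1.5-fold rule, against 2.47% of all genes higher and 3.27% lower, with a median of -0.02 beside 0.01 for all genes. Higher were EDN1, the endothelin 1 gene and a SMAD target (log2 difference 2.30 and 2.27), THBS1, a matrix protein that activates latent TGFβ (1.59 and 1.48), SMURF2, a ubiquitin ligase that SMAD7 brings to the receptor (1.10 and 1.07), MYC and NEDD4L. Lower were the co-receptor gene TGFBR3 (-0.94 and -0.95), VEGFA and ITGB8. As deposited, 3 were higher (THBS1, SMURF2 and EDN1) and 22 lower, where 0.452% of all genes were higher and 32.3% lower. With knockdown on TGFβ1, EDN1 (-2.23 and -1.75), THBS1 (-2.40 and -1.05), SMURF2 (-0.90 and -0.71), TGFB1 (-0.89 and -1.06) and NOG were lower and TGFBR3 (1.02 and 0.84) was higher, 5 and 1 of the 56 against 4.48% and 1.36% of all genes. As deposited, 2 of the 56 were lower with knockdown (THBS1 and EDN1) and 13 higher, against 0.751% of all genes lower and 27.6% higher.

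On hypoxia, TGFB1, which encodes the ligand itself (0.73 and 0.89), EDN1 (0.68 and 1.51), BHLHE40 and CDKN1A were higher and THBS1 (-0.97 and -0.59) and TGFBR3 (-0.70 and -0.61) lower, 4 and 2 of the 56 against 3.02% and 1.95% of all genes. As deposited THBS1 missed the rule on day 2 (-0.92 and -0.57). With knockdown on hypoxia, TGFB1 (-1.82 and -1.01) and EDN1 (-1.34 and -1.13) were lower, against 3.76% of all genes, and as deposited THBS1 was too. On 4-OHT, LTBP1, which stores latent TGFβ in the matrix (0.87 and 1.36), and VEGFA (0.73 and 1.93) were higher, 2 of the 56 against 2.33% of all genes. Both were lower with knockdown, LTBP1 by -1.43 on both days, as was TGIF1, and THBS1, FURIN and STRAP were higher, 3 and 3 of the 56 against 7.48% lower and 2.19% higher. As deposited TGIF1 missed the rule and ITGAV was also higher. None of the 5 other type I and type II receptors above the filter and none of the 5 other SMADs passed the rule in any of these 6 comparisons after quantile normalisation. As deposited, ACVR1B, ACVR1C, SMAD1 and SMAD9 were lower on TGFβ1, where 32.3% of all genes were, and SMAD9 was higher with knockdown. In limma, 0 of the 56 were called for knockdown over the 6 pairs, against 0.878% of all genes. For TGFβ1 against hypoxia limma called SMURF2 (0.77, adjusted p = 0.0451), THBS1 (2.07, adjusted p = 0.0455) and VEGFA (-1.33, adjusted p = 0.0397). These were 3 of the 56, against 2.53% of all genes. As deposited, limma called THBS1 and VEGFA, against 2.14% of all genes.

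Genes whose levels followed these genes most closely were ranked by Pearson correlation over the 14 arrays, which share lines, treatments and array scale and are given without a test. PMEPA1 correlated most with FAAP100 (r = 0.91), but as deposited at r = 0.14. ID2 likewise correlated with WNT1 at 0.88 and, as deposited, at 0.18. The next partners of PMEPA1 fell too, CDKL1 from 0.88 to 0.52 and PLAA from 0.88 to 0.72 as deposited. So did those of ID2, CDKN1C from 0.88 to 0.38 and FAAP20 from 0.87 to 0.29. For the other genes, the leading partner depended less on the scale. ID1 correlated with SNX18 at 0.95 (0.91 as deposited) and with the mitotic gene UBE2C at 0.91 on both scales. TGFBR1 correlated with LYG1 at 0.93 (0.92) and TGFBR2 with NOTCH2, a receptor gene of another pathway, at 0.89 (0.90). BAMBI correlated with TMEM242 at 0.92 (0.83) and SKIL with C9orf78 at 0.89 (0.84). The highest r of SMAD3 was 0.83, with CD68 (0.87), and that of SMAD7 0.89, with KTN1-AS1 (0.76). Among the 10 genes themselves, the highest was ID2 with ID3 at 0.89, or 0.57 as deposited.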

How the data were processed

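RNA of 14 conditions was amplified with the NuGEN Applause WT-Amp ST system and hybridised to GeneChip Human Gene ST arrays. The deposited log2 values were made by the authors with RMA in Partek, named without versions in the submitters' processing notes. Scanner files were not used here, and precision is limited by how few arrays there are. Of 33297 probe sets, 19460 carry 1 gene symbol in the array's annotation, 1754 several and 12083 are not listed. Only those with 1 symbol were named, and 19429 symbols were updated by gene ID. In 29.6% of probe sets, at least 2 arrays share a deposited value to every digit.

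The log2 values as deposited were quantile-normalised over the 14 arrays (R 4.3.3, limma 3.58.1, the R package data.table, 1.17.8), and probe sets of a gene were averaged. Array groups came from the sample titles. Genes with a mean at or above the 40th percentile were kept. Differences from untreated and with knockdown within a treatment were counted at 1.5-fold at both times. Paired comparisons used limma's lmFit and eBayes with the pair as a block and a threshold of 0.05 after Benjamini-Hochberg adjustment. The pairs come from the design (treatment and time, or knockdown and time). P-values measure how a difference varied over pairs that themselves differ in treatment, line, day or knockdown. In the test of TGFβ1 against the other treatments, they measure how it varied between the days of a treatment. This spread may be technical or may hold real differences between conditions. Pairs were treated as independent, although separate cultures are not stated. The fits were also run on simulated data with independent noise, no pair effects and an added difference of constant size for each changed gene. Such data lack the pair structure of these arrays.

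The 10 genes, the pathway lists and the tests were chosen with earlier results of these data known. All 10 genes were named, with, for each gene above the filter, the leading genes by correlation, and of each pathway list those with the largest differences. Alternatives covered scaling, filter, probe sets, fold rule, single time points, block, variance trend and left-out pairs. Counts on knockdown arrays against untreated, the fit without both TGFβ1 pairs, and the TGFβ1 and hypoxia fits within each knockdown state were added after the data were seen.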

Additional observations from a re-analysis of the deposited data

Results flagged for a closer look

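Some genes moved one way in both arrays of a condition and the opposite way in both arrays of another. These differences between conditions were not tested unless stated, and each rests on 2 arrays a side.

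ID2 was lower with knockdown on TGFβ1 (log2 difference -1.67 and -1.72) and higher with it on hypoxia (1.37 and 0.49), a gap of -2.63 between the means. The 1.37 came from the hypoxia day 1 array with knockdown that stood apart. This gap to hypoxia alone was not tested. Against hypoxia and 4-OHT together, the ID2 difference was -2.25 (adjusted p = 0.762 by limma). ID1 was above the untreated array on TGFβ1 (0.74 and 0.77) and below it on TGFβ1 with knockdown (-0.58 and -0.42), a gap of -1.26. BAMBI was above the untreated Snai1ER array on 4-OHT (0.76 and 0.31) and below it with knockdown (-0.76 and -0.87), a gap of -1.35.

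TGFBR1 was slightly above the untreated array on TGFβ1 (0.17 and 0.09) and below it with knockdown (-0.35 and -0.29), a gap of -0.45. SMAD7 was lower with knockdown on TGFβ1 (-0.31 and -0.36) and higher on hypoxia (0.48 and 0.09), a gap of -0.62. For SMAD7, hypoxia also differed from 4-OHT (-0.03 and -0.09), by 0.35. On 4-OHT the deposited SMAD7 differences were 0.04 and 0, so the negative direction there came with the normalisation. The directions of TGFBR1 and SMAD7 on TGFβ1 also change on the deposited values, as given above.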

How the results depend on the processing

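Of the alternatives for single genes, 334 were counted as unchanged. A fold difference counted so when its mean moved by no more than the gap between its 2 days. A limma result counted so when direction and side of the threshold held. Another 41 moved by more than that gap, and 13 lost a limma call (TGFBR2 and PMEPA1). A reversed fold difference was counted only past the rule, and 1 occurred. It was the mean ID3 difference with knockdown on TGFβ1, -0.76, which was 0.20 as deposited. Differences short of the rule also changed sign as deposited. Among them were those of SMAD7 on TGFβ1 (0.42 to -0.27) and with knockdown (-0.33 to 0.40) and of TGFBR1 on TGFβ1 (0.13 to -0.27). Some sign changes lay within the 334, such as ID1 with knockdown on hypoxia (-0.03 to 0.07). ID1 missed the rule as deposited on TGFβ1 and with knockdown. Centred on array medians, limma's adjusted p of TGFBR2 was 0.102 and it instead called SKIL, lower. The share of all genes called with that centring is not given here. Counts of the 9 genes were 5 on TGFβ1, 1 on hypoxia and 0 on 4-OHT. On the knockdown arrays they were 3, 2 and 1 (BAMBI lower). At the later time alone, hypoxia gave 2 (SMAD3 and TGFBR1) and 4-OHT 1 (TGFBR2 lower), and at the earlier time alone 4-OHT gave 1 (BAMBI higher). These single times called 10.3%, 21% and 5.52% of all genes. The knockdown count on hypoxia (1) was 0 at 2-fold, 4 at the earlier and 3 at the later time, against 1.06%, 37% and 14.1% of all genes. That on 4-OHT (2) was 1, 5 and 4, against 2.62%, 20.6% and 35.4%. For knockdown over 6 pairs, limma's count of 1 was 0 as deposited, 0 without the replicate block that pairs treatment and time, 0 without both TGFβ1 pairs, and 0 to 3 with a pair left out. For TGFβ1 against hypoxia, its count of 1 was 2 centred on medians (PMEPA1 and SKIL) and 0 to 3 with a pair left out. In the pairs with knockdown alone it was 0 (PMEPA1 1.30, adjusted p = 0.702 by limma), and in those without it 9, where 34.8% of all genes were called. The main fit called 2.53% of all genes. Because this share differed between settings, limma's counts of the 9 genes are not comparable on their own. Signal over background was not analysed here, so the low levels of ID1, SMAD7 and ID3, where the scale decides the direction or the call, have no detection limit.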
